A study of Homo sapiens with 32 samples.

Results

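All-trans retinoic acid (ATRA) was compared with its vehicle, DMSO, in MM.1S, an established human multiple myeloma cell line. Gene expression in total RNA was measured by RNA sequencing and is given in FPM, fragments scaled to a total of 1000000 in each library and not corrected for gene length. Members are the 3 libraries of cells kept for 12 h in 10 µM ATRA and the 3 libraries of cells kept for 12 h in DMSO, and both groups had first been given a 1 h pulse of DMSO. Each library was sequenced on 4 lanes, so the comparison uses 24 of the 32 samples, and all genes of the table enter it. Of 24249 gene IDs, 15758 passed a minimum of 0.5 FPM over the means of both groups and were tested. The question is which transcripts differ after 12 h of ATRA.

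ATRA is the active acid form of vitamin A. It binds the retinoic acid receptors RARA, RARB and RARG, which pair with a retinoid X receptor on paired DNA half-sites and recruit coactivators in place of corepressors when ligand is bound. Target genes often include the enzymes that clear retinoic acid, so the pathway limits its own ligand, and retinoids are known to drive maturation in several blood cell lineages. Myeloma cells are malignant plasma cells, the antibody-secreting stage of the B cell lineage.

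Depth was 14381173 to 17155331 reads per library, and 3 reads corresponded to 0.175 to 0.209 FPM. DMSO 3 stood apart from the other controls: its chi-square per degree of freedom was 10.46 and 11.03 against DMSO 1 and DMSO 2, which differed from each other by 1.812. The first principal component held 73.9% of the variance and separated ATRA from DMSO, and the second held 8.45% and separated DMSO 3 from the other 5. The 36 mitochondrial genes took 5.85% of fragments in DMSO 3 against 3.67% to 4.12% in the other 5. Of 12 plasma cell markers listed, 11 were tested, of which 6 rose (54.5%) and 4 fell (36.4%). The summed level of the list ranged from 8478 to 9981 FPM over the DMSO libraries and from 11349 to 11455 FPM over the ATRA libraries. This sum includes XBP1, whose mean went from 895 to 2646 FPM. Markers of B cells before the plasma cell stage, an earlier stage of the same lineage, summed to 114 to 125 FPM in controls and 114 to 121 FPM in ATRA libraries. Of the 7 tested, 2 rose (28.6%) and 3 fell (42.9%). For other cells, T and NK cell markers ranged from 4.53 to 5.02 FPM over controls and from 4.85 to 7.26 FPM over ATRA libraries, and myeloid markers from 11.9 to 15.2 FPM and from 10.8 to 14.4 FPM. Stromal and endothelial markers held 21.3 to 26.02 FPM in controls against 13.2 to 15.2 FPM in ATRA libraries, and epithelial and erythroid markers 10.8 to 18.7 FPM against 7.09 to 9.06 FPM. Of these lists some defining markers (CD3D, LYZ, MPO, COL3A1, VWF, MS4A1 and PAX5) were at 0 or had no value in any library, and others were detected, such as CD3E at 1.26 to 0.522 FPM and the B cell gene CR2 at 32.5 to 23.8 FPM. Separate cultures are not mentioned in the labels, and a p-value here therefore reflects the variation among libraries, possibly all of it technical. In bulk RNA, fewer cells of a kind and less RNA per cell cannot be told apart.

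CYP26A1, the cytochrome P450 that degrades retinoic acid, had the third largest rise on the log2(FPM + 0.5) scale. Its promoter is shown because it holds a pair of retinoic acid half-sites. Promoter windows of 300 bases (250 before to 50 after each start, RefSeq, GRCh38.p14) were searched on both strands for direct repeats of a retinoic acid receptor half-site, named by the spacing between the half-sites. A repeat with a spacer of 5 bases (DR5) was found in 31 of 35116 windows (0.0883%). It stood in windows of 12 of the 10598 tested genes with a window (0.113%), and of these 12 genes 6 rose, 2 fell and 4 were not called. Among genes at least 2-fold higher it was in 3 of 201 (1.49%), and among those at least 2-fold lower in 0 of 352. The 3 genes are CYP26A1, the ubiquitin ligase TRIM31 and FCRL6, an Fc receptor-like protein whose match lies after the start. The same repeat was found before the start of RARB, a retinoic acid receptor. A match is a description of the letters in the window and not a binding site. Stretches of 120 bases before the start are shown for CYP26A1, RARB and TRIM31, chosen for their folds or their role in the pathway; among the other tested genes with a match before the start, ATXN1L rose (0.46) and HROB (-0.81) and PANK2 (-0.38) fell. The stretches run 5′ to 3′ along the gene, with the repeat in capitals, and lie at chr10:93073773-93073892 on the plus strand, chr3:25428143-25428262 on the plus strand and chr6:30113201-30113320 on the minus strand.
CYP26A1: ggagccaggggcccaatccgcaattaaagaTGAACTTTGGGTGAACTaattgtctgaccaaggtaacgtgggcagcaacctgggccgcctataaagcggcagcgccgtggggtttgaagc
RARB: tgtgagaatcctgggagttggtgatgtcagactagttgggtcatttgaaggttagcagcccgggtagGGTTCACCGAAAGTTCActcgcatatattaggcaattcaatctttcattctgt
TRIM31: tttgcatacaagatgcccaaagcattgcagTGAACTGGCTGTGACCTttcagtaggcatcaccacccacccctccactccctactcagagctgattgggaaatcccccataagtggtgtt
The repeat lay 90 to 74 bases before the start in CYP26A1, 53 to 37 in RARB and 200 to 184 in TRIM31. Repeats with spacers of 1, 2 and 4 bases were in 0.131%, 0.0399% and 0.0854% of windows. With a spacer of 2 bases, 0 of 5 tested genes rose and 3 fell, and with 4 bases 6 of 14 rose and 1 fell. With a spacer of 1 base, 9 genes rose and 9 fell of 26 tested, and at least 2-fold changed were RAP1GAP2, a GTPase activator for RAP1 (2.02 to 12.6 FPM, log2 fold change 2.39), PHACTR2 (-1.27) and RNF183 (-1.12).

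Levels of the 3 genes differed widely. CYP26A1 was at 78.97, 77.7 and 92.9 FPM with DMSO and 3822, 3814 and 3808 FPM with ATRA (log2 fold change 5.52 ± 0.057 SE, limma adjusted p = 3.3e-14, Benjamini-Hochberg over all genes tested, as everywhere here). Every ATRA library lay far above every DMSO library, and the 3 ATRA libraries differed by little. TRIM31 was at 0.175, 0 and 0.267 FPM with DMSO and 9.44, 8.77 and 9.43 FPM with ATRA (log2 fold change 3.93 ± 0.18 SE, limma adjusted p = 1.1e-08), with 0 to 4 reads in each DMSO library. RARB was at 0.176, 0.362 and 0.403 FPM with DMSO and 1.01, 1.32 and 0.895 FPM with ATRA (log2 fold change 0.95 ± 0.21 SE, limma adjusted p = 0.0024), and its libraries did not overlap although its level was low in both groups. Since 0.5 FPM was added before taking logarithms, the fold of such low genes is understated.

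Over all genes, 7720 of 15758 were called (49.0%) at an adjusted p under 0.05. Of these, 3361 rose (21.3%) and 4359 fell (27.7%), with a median log2 fold change of -0.03 over all genes tested. Most calls were small: 961 rises and 862 falls were under 1.19-fold, and 1264 rises and 1454 falls lay between 1.19-fold and 1.41-fold. At least 2-fold, 312 genes rose (1.98%) and 477 fell (3.03%), so falls were the more frequent between 1.19-fold and 4-fold. Past 4-fold the order turned, with 54 rises and 20 falls between 4-fold and 8-fold and 27 rises against 1 fall, ITGB8, past 8-fold. The pseudocount of 0.5 FPM mattered to the count of genes at least 2-fold changed: with 2 FPM added it was 182 higher and 225 lower, and with edgeR on recovered reads 493 higher and 665 lower. Without DMSO 3, 8235 genes were called, of which 7362 were called with it, and no called gene changed sign.

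**Figure D1:**
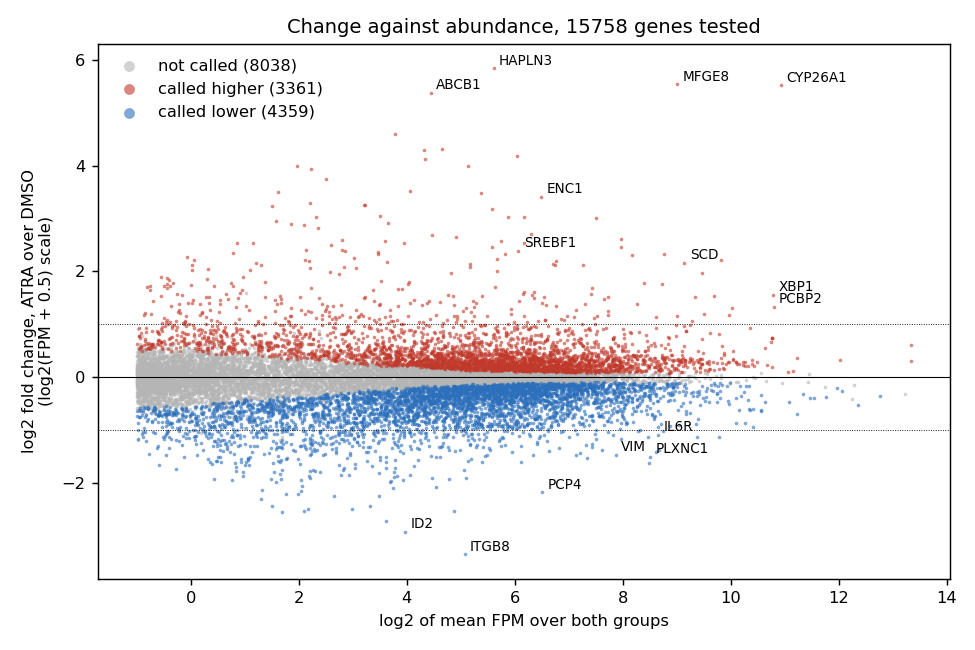
Log2 fold change of ATRA over DMSO (vertical axis) against the log2 of mean FPM (horizontal axis) for the 15758 genes tested; each point is a gene, red and blue mark the 3361 genes called higher and the 4359 called lower, and dotted lines mark 2-fold. The largest changes are rises, with HAPLN3, MFGE8, CYP26A1 and ABCB1 all past 5 on the log2 scale.

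Counts differed with abundance and gene class. In the fifth of tested genes with the lowest level (up to 1.64 FPM) 7.55% rose and 9.45% fell. In the fifth with the highest level (77.1 FPM and more) 36.4% rose and 35.1% fell, so calls in both directions were more frequent at high abundance. Of 12385 protein-coding genes, 2950 rose (23.8%) and 4022 fell (32.5%). Counts in the gene lists below are to be read against these shares, and several lists lie near them. Of 795 lincRNA genes 110 rose (13.8%) and 61 fell (7.67%), and of 979 antisense genes 115 rose (11.7%) and 84 fell (8.58%), so both of these noncoding classes were called less often than all genes in either direction. The files do not state a strand setting, and antisense values may hold reads of the gene on the other strand. In the fifth of protein-coding genes with the shortest span (up to 11.4 kb) 27.3% rose and 25.6% fell (median 0.00), and in the fifth with the longest span (103.2 kb and more) 20.4% rose and 39.5% fell (median -0.10).

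The change moved 11.3% of all fragments from genes that were lower on average to genes that were higher, and the 15 genes with the largest gains took 19.9% of it. ITGB7, the integrin subunit that pairs with integrin alpha 4 to hold plasma cells in bone marrow, gained most. It was at 9161, 8915 and 6867 FPM with DMSO and 12601, 12619 and 12445 FPM with ATRA (log2 fold change 0.61 ± 0.090 SE, limma adjusted p = 1.4e-04). DMSO 3 was the lowest control, and without it the log2 fold change was 0.47. The elongation factor EEF1A1 went from 9252 ± 243 to 11447 ± 161 FPM (log2 fold change 0.31), XBP1, which drives the secretory program of plasma cells, from 895 ± 9.9 to 2646 ± 11 FPM (1.56) and DUSP5, a nuclear phosphatase of ERK, from 319.7 ± 23 to 1495 ± 24 FPM (2.23). PCBP2, a poly(C)-binding RNA regulator, was at 991, 988 and 1046 FPM with DMSO and 2552, 2548 and 2542 FPM with ATRA (log2 fold change 1.34 ± 0.036 SE, limma adjusted p = 1.5e-10). Its groups were tight and far apart. METTL7A, a membrane-bound methyltransferase (1.31), and NXPE3, of unknown function (1.98), gained as well. Values of the ribosomal RNA-like IDs FP671120.3, FP236383.3 and FP236383.2 were identical in every library, so their gains cannot be told apart.

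Among the genes with the largest losses were secretory and cytoskeletal genes. TXNDC5, a disulfide isomerase of the endoplasmic reticulum, was at 6583, 6642 and 5404 FPM with DMSO and 4222, 4373 and 4308 FPM with ATRA (log2 fold change -0.52 ± 0.070 SE, limma adjusted p = 5.9e-05). Without DMSO 3 its log2 fold change was -0.62. The light chain constant gene IGLC1 went from 7802 ± 311 to 6099 ± 112 FPM (-0.35) and IGLL5, which shares its sequence in part, from 3943 ± 288 to 3062 ± 50 FPM (-0.36); reads of such related genes may be split between them. PRKD3, a kinase of the protein kinase D family, went from 1787 ± 61 to 938 ± 5.2 FPM (-0.93), ACTB, cytoplasmic actin, from 2947 ± 253 to 1829 ± 9.7 FPM (-0.68) and TUBB, beta tubulin, from 1579 ± 71 to 870.1 ± 1.6 FPM (-0.86). The mitochondrial COX1 (10703 ± 3138 with DMSO and 8409 ± 138 FPM with ATRA) and ND4 (5596 ± 1942 with DMSO and 4074 ± 182 FPM with ATRA) had large mean differences but were not called, and DMSO 3 held the highest value of both, at 14325 FPM of COX1 and 7838 FPM of ND4. Further mitochondrial genes among the largest losses were called lower, ND5 from 3242 ± 856 to 2415 ± 118 FPM (-0.39), COX3 from 3394 ± 687 to 2568 ± 73 FPM (-0.38) and ATP6 from 2513 ± 463 to 1809 ± 78 FPM (-0.46). Without DMSO 3 their log2 fold changes were -0.19, -0.22 and -0.31. All 3 calls were lost with robust variances, those of COX3 and ND5 also with DESeq2, and that of ND5 also without any 1 of the ATRA libraries.

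Some abundant genes hardly moved. Of the 300 genes with most fragments, 5 had a 95% interval of the log2 fold change inside -0.1 to 0.1: EIF4G2, PTGES3, ATP5F1B, YWHAE and ATP5F1A, which serve translation, protein folding, ATP synthesis and phosphoprotein binding. ATP5F1A was at 635, 645 and 639 FPM with DMSO and 633, 642 and 643 FPM with ATRA, and its groups overlapped.

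Among enzymes that carry or convert retinoids, 3 of 15 tested members rose and 1 fell (median log2 fold change 0.11). Of this list 11 members were not called, beside the large rise of CYP26A1. RDH11, a retinal reductase, rose from 35.01 ± 1.5 to 61.4 ± 1.3 FPM (0.80), and the related RDH13 fell from 37.9 ± 0.12 to 25.4 ± 1.1 FPM (-0.57). RDH14 was called at 0.20, a call lost without ATRA 1, ATRA 3, DMSO 1 or DMSO 2. RETSAT, which saturates retinol (39.6 ± 7.6 with DMSO and 44.3 ± 0.98 FPM with ATRA), FABP5, which can carry retinoic acid to other receptors (133 ± 13 with DMSO and 139 ± 5.2 FPM with ATRA), and RDH10, which makes retinal from retinol (16.9 ± 0.57 with DMSO and 17.4 ± 0.48 FPM with ATRA), were not called. LRAT, which esterifies retinol, was at 0.606 ± 0.39 with DMSO and 0.479 ± 0.093 FPM with ATRA and was not called. Without DMSO 3 or ATRA 2 the list had 2 falls.

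The nuclear receptors include the receptors of retinoids, steroids and thyroid hormone. Of 33 tested members, 9 rose (27.3%) and 7 fell (21.2%, median log2 fold change 0.05), against 21.3% and 27.7% over all genes. RARA was at 54.6, 51.5 and 51.7 FPM with DMSO and 89.1, 87.3 and 86.1 FPM with ATRA (log2 fold change 0.73 ± 0.043 SE, limma adjusted p = 6.0e-08), with all ATRA libraries above all DMSO libraries. RARG was at 8.51, 9.24 and 7.75 FPM with DMSO and 11.2, 9.45 and 10.2 FPM with ATRA (log2 fold change 0.26 ± 0.10 SE, limma adjusted p = 0.058), and was not called. Its partner gene RXRA, a retinoid X receptor, was at 21.5, 22.2 and 17.8 FPM with DMSO and 14.4, 15.3 and 14.96 FPM with ATRA (log2 fold change -0.45 ± 0.088 SE, limma adjusted p = 0.0012), so 1 partner of the heterodimer was lower while RARA was higher. RXRB was called at 0.18, a call lost without ATRA 1, ATRA 2 or DMSO 2.

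On the log2(FPM + 0.5) scale the largest rise in the family was ESRRG, an orphan receptor of energy metabolism, at 3.14, 2.66 and 2.61 FPM with DMSO and 8.31, 7.99 and 7.89 FPM with ATRA (log2 fold change 1.38 ± 0.12 SE, limma adjusted p = 2.1e-06). The clock repressors NR1D1 (8.85 ± 0.49 to 19.4 ± 0.56 FPM, 1.09) and NR1D2 (50.99 ± 4.1 to 80.6 ± 2.1 FPM, 0.66) rose together. NR6A1 (0.65), a germ cell factor, and ESR1 (0.63), an estrogen receptor, rose from low levels. The glucocorticoid receptor NR3C1, the target of dexamethasone in myeloma therapy, fell from 205 ± 19 to 152 ± 3.7 FPM (-0.43), and its relative NR3C2, the mineralocorticoid receptor, from 12.3 ± 1.8 to 6.08 ± 0.043 FPM (-0.95). NR2F2 (-0.99), RORA (-0.50) and PPARA (-0.27) fell too, while VDR, the vitamin D receptor (83.2 ± 2.5 with DMSO and 87.9 ± 2.7 FPM with ATRA), was not called.

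**Figure D2:**
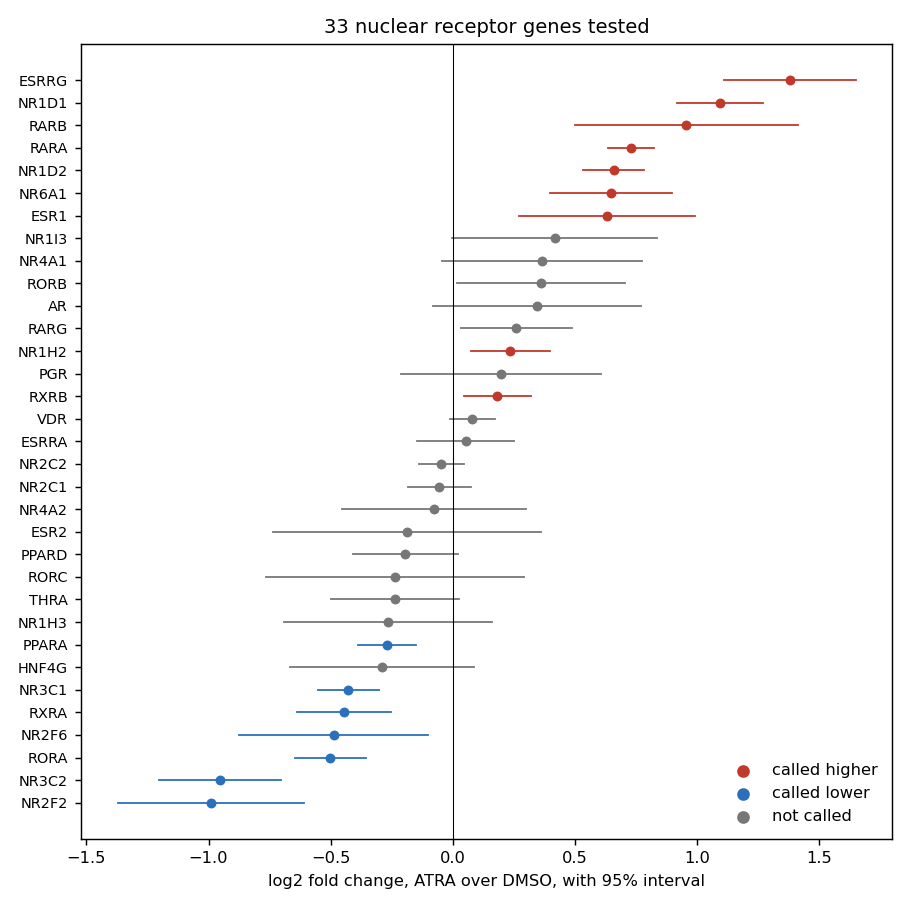
Log2 fold change of ATRA over DMSO with its 95% interval for the 33 nuclear receptor genes tested, in order of size. ESRRG, NR1D1, RARB and RARA stand at the top, NR2F2 and NR3C2 at the bottom, and 17 genes in between were not called.

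Of the coactivators and corepressors, 7 of 30 rose and 12 fell (median -0.07). HIC1, a zinc finger repressor, was at 1.05, 0.905 and 0.735 FPM with DMSO and 9.27, 10.2 and 8.72 FPM with ATRA (log2 fold change 2.83 ± 0.15 SE, limma adjusted p = 2.4e-08). NCOA7 rose (0.47), and PPARGC1A, a coactivator of mitochondrial genes, fell from 33.02 ± 1.5 to 18.4 ± 1.4 FPM (-0.83). NCOR1, a corepressor that binds receptors without ligand, was at 229.6 ± 8.7 with DMSO and 230.2 ± 4.8 FPM with ATRA and was not called.

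Beyond the receptors and CYP26A1, the rises of rank 13 to 25 held genes of varied function. ENC1, an actin-binding adaptor of ubiquitin ligases, was at 15.6, 12.3 and 17.5 FPM with DMSO and 162, 162 and 168 FPM with ATRA (log2 fold change 3.41 ± 0.095 SE, limma adjusted p = 1.6e-10). CEACAM1, an inhibitory adhesion receptor, was at 2.04, 1.21 and 1.004 FPM with DMSO and 17.01, 18.2 and 16.9 FPM with ATRA (log2 fold change 3.26 ± 0.17 SE, limma adjusted p = 3.2e-08). For both genes the lowest ATRA library was several times the highest DMSO library. SERINC2, a membrane protein of the serine incorporator family, was at 2.45, 1.57 and 2.95 FPM with DMSO and 32.7, 30.7 and 30.4 FPM with ATRA (3.53), and SHB, an SH2 adaptor of receptor tyrosine kinases, at 1.11, 1.21 and 1.81 FPM with DMSO and 17.3, 17.7 and 16.7 FPM with ATRA (3.26). NSG2, a neuronal vesicle protein (0.366 to 11.1 FPM, 3.74), FSD2 (0.509 to 8.72 FPM, 3.29) and MPPED2, a metallophosphodiesterase (2.04 to 20.6 FPM, 3.05), rose from low levels, and so did the noncoding AL357143.1 (12.6 to 106 FPM, 3.03).

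The falls of rank 13 to 25 were varied too. PCP4, a calmodulin regulator, was at 149, 151 and 146 FPM with DMSO and 32.0, 33.7 and 32.4 FPM with ATRA (log2 fold change -2.17 ± 0.041 SE, limma adjusted p = 9.8e-12), the fall among them with the most fragments. PTPRD, a receptor tyrosine phosphatase, was at 39.6, 39.4 and 35.7 FPM with DMSO and 8.44, 8.83 and 8.91 FPM with ATRA (log2 fold change -2.07 ± 0.071 SE, limma adjusted p = 9.4e-10). FN1, which encodes fibronectin, was at 24.1, 23.8 and 18.6 FPM with DMSO and 4.41, 4.87 and 5.04 FPM with ATRA (log2 fold change -2.10 ± 0.11 SE, limma adjusted p = 3.2e-08). Each of these groups was separate from the other. ID3, which like ID2 blocks basic helix-loop-helix factors, fell from 5.06 ± 0.39 to 0.921 ± 0.18 FPM (-1.97), and PLK2, a polo-like kinase, from 24.6 ± 4.2 to 5.99 ± 0.59 FPM (-1.94). The intermediate filament gene SYNM (-1.98), the actin pointed-end capping gene TMOD1 (-1.96), the endocytic adaptor DAB2 (-2.15), the TGF-beta signalling inhibitor LDLRAD4 (-2.19), TTC39C (-2.21), IGSF11 (-2.12) and PLXDC2 (-2.04) fell as well.

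**Figure D3:**
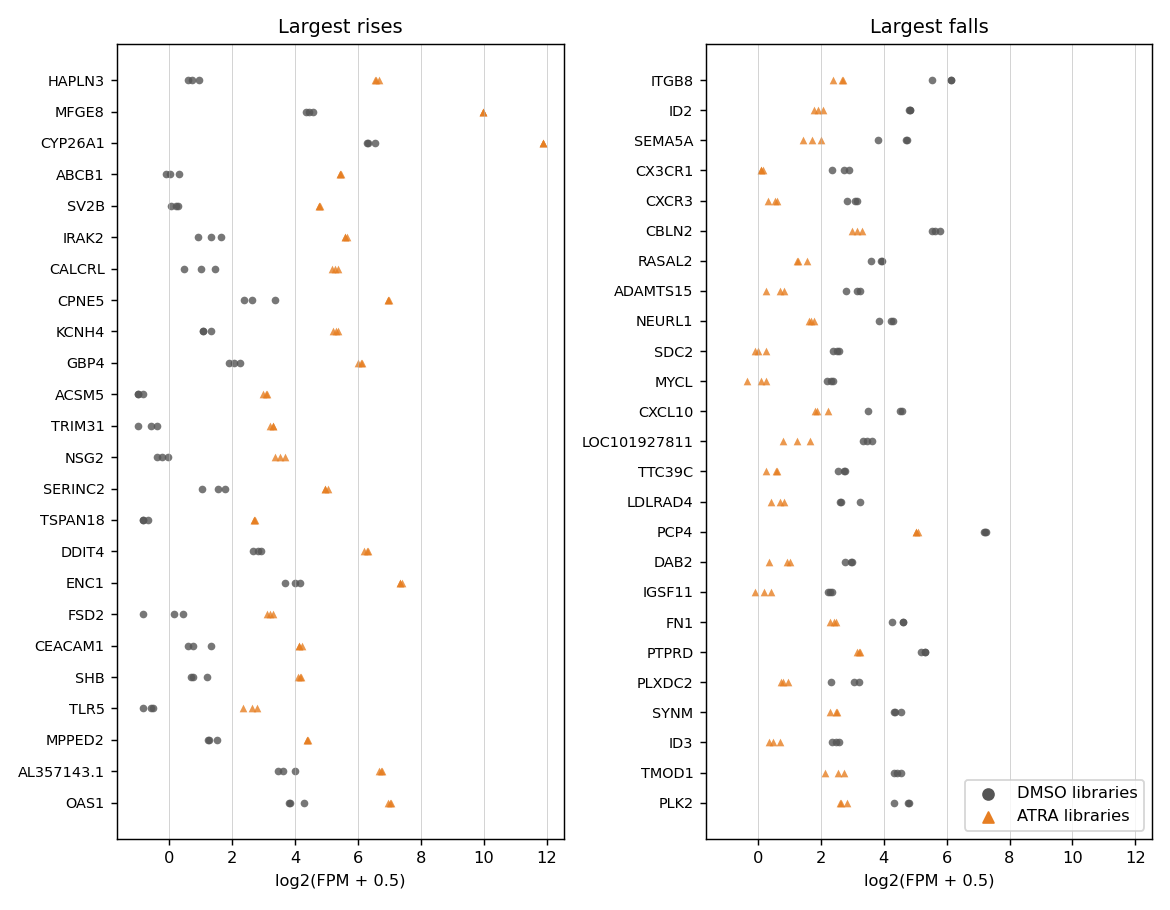
Level in each library, as log2(FPM + 0.5), of 24 of the 25 largest rises (left) and the 25 largest falls (right); grey circles are the 3 DMSO libraries and orange triangles the 3 ATRA libraries. The rule for these genes required separate groups, so the gap is a description, and its width is greater for the rises than for the falls.

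Several genes went from near absence to a clear signal. With at most 3 reads in each DMSO library and at least 1 FPM in each ATRA library, 13 genes were found, and 1 gene, KRT15, showed the reverse. Given against a floor of 3 reads at the mean depth of the DMSO group (0.185 FPM), ACSM5, a medium-chain acyl-CoA synthetase, was at least 42.3-fold higher, with 0, 0 and 1 reads in DMSO 1 to 3 and 117, 116 and 126 reads in ATRA 1 to 3. TSPAN18, a tetraspanin, was at least 33.0-fold higher (1, 2 and 1 against 96, 89 and 95 reads). TLR5, the receptor of bacterial flagellin, was at least 30.1-fold higher (3, 1 and 3 against 103, 81 and 72 reads). Each of these 3 genes was close to the floor in every control.

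CD7, an early T and NK lineage receptor, was at least 11.1-fold higher (0, 1 and 1 against 27, 28 and 39 reads), while CD3D had no value and CD3E fell (1.26 to 0.522 FPM, -0.78). The matrix gene ECM2 and the potassium channel KCNJ4 were at least 10.6-fold and 10.4-fold higher, and WNT10B, a WNT ligand, at least 8.13-fold. AL358613.2, the aspartic protease NAPSA, the dipeptidase DPEP2 and IRAK3, an inhibitory kinase of Toll-like receptor signalling, were at least 6.8-fold to 7.85-fold higher. KRT15, a keratin, held 22, 18 and 16 reads with DMSO and 2, 2 and 3 with ATRA, which is at least 5.84-fold lower against a floor of 0.196 FPM.

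**Figure D4:**
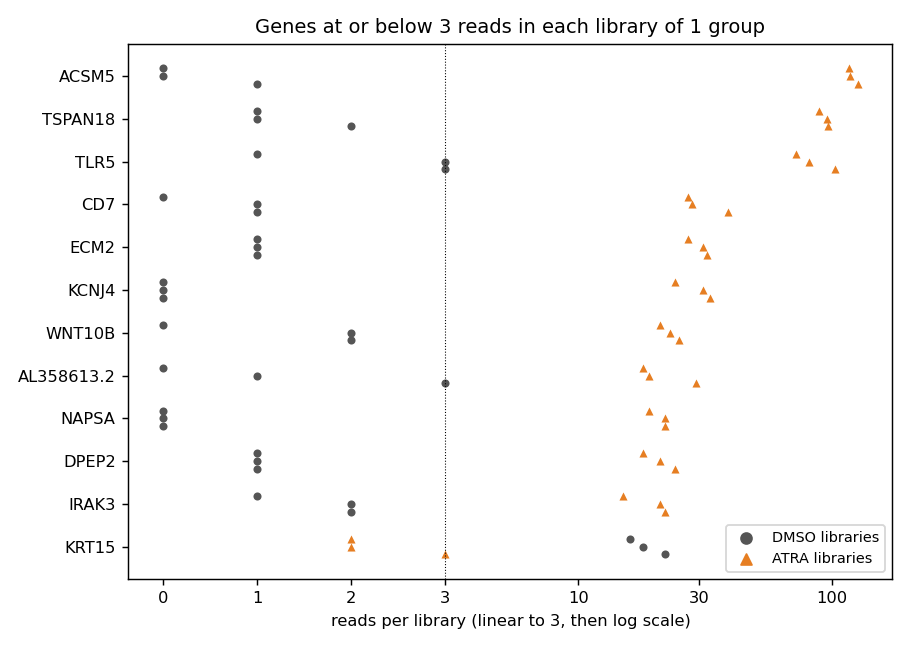
Reads per library for the 11 genes with a symbol that had at most 3 reads in each DMSO library and at least 1 FPM in each ATRA library, and for KRT15, which had the reverse pattern; circles are DMSO and triangles ATRA libraries, and the axis is linear to 3 reads and logarithmic beyond. ACSM5, TSPAN18 and TLR5 reach 72 to 126 reads with ATRA.

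Transcription factor families held rises and falls. In the KLF and SP family 7 of 18 rose and 7 fell (median 0.17): KLF2, which restrains lymphocyte proliferation, rose from 28.1 ± 2.3 to 55.5 ± 2.4 FPM (0.97) and KLF10 from 38.3 ± 3.2 to 73.5 ± 1.4 FPM (0.93), whereas KLF6 fell from 144 ± 2.1 to 89.99 ± 4.1 FPM (-0.68) and KLF11 (-1.14) and SP3 (-0.56) fell with it. In the AP-1 and MAF family 7 of 16 rose and 5 fell (median 0.08), with 3 falls by DESeq2. JUN fell from 33.3 ± 1.1 to 17.7 ± 0.47 FPM (-0.89) and FOS from 1.17 ± 0.57 to 0.152 ± 0.033 FPM (-1.29), while CREM, a cAMP-responsive factor, rose (0.68) and MAF, a factor that drives a subset of myelomas, rose from 894 ± 6.3 to 1717 ± 7.3 FPM (0.94). ETS factors were mostly lower: 3 of 18 rose and 11 fell (median -0.29), among them ETS1, at 117, 121 and 124 FPM with DMSO and 53.7, 53.05 and 55.1 FPM with ATRA (log2 fold change -1.15 ± 0.040 SE, limma adjusted p = 1.0e-09), and SPI1, which encodes PU.1 (-0.52). Of the homeobox genes, 0 of 11 rose and 5 fell (median -0.19), with PBX3 at -1.05 and HOXB3 at -0.60. That list had 1 rise without DMSO 1 or ATRA 2 and under 6 other settings.

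Cytokine receptors were more often lower than higher, as 5 of 28 rose and 12 fell (median -0.25), against 21.3% and 27.7% over all genes. IL6R, the receptor of the main myeloma growth factor interleukin 6, was at 571, 563 and 511 FPM with DMSO and 254, 258 and 265 FPM with ATRA (log2 fold change -1.08 ± 0.043 SE, limma adjusted p = 3.2e-09), and all ATRA libraries lay below all DMSO libraries. IL17RA (-0.88), IL4R (-1.09), LIFR (-1.19) and IL1RAP (-1.31) fell, while the interferon receptor chains IFNAR1 (371 ± 20 with DMSO and 385 ± 4.9 FPM with ATRA) and IFNAR2, whose lanes differed in 1 library, were not called. Downstream of these receptors, 3 of 20 rose and 9 fell (median -0.10). JAK2 fell from 34.9 ± 1.3 to 22.3 ± 1.1 FPM (-0.64) and JAK3 from 21.1 ± 3.4 to 13.3 ± 0.79 FPM (-0.63), while SOCS3, a feedback inhibitor of JAK signalling, was at 0.174, 0.0600 and 0 FPM with DMSO and 1.83, 0.904 and 1.47 FPM with ATRA (log2 fold change 1.70 ± 0.24 SE, limma adjusted p = 8.3e-05). That list had 5 rises with median-ratio scaling or edgeR. DKK1, the WNT antagonist that myeloma cells secrete, was at 3.09, 3.38 and 2.54 FPM with DMSO and 0.316, 0.419 and 0.509 FPM with ATRA (log2 fold change -1.94 ± 0.18 SE, limma adjusted p = 3.1e-06), and HBEGF, an EGF receptor ligand, fell from 10.4 ± 1.3 to 2.96 ± 0.21 FPM (-1.66).

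In the TNF superfamily, 5 of 23 rose (21.7%) and 8 fell (34.8%, median -0.04), near the 23.8% and 32.5% of protein-coding genes. TNFRSF17, which encodes BCMA, a plasma cell receptor that myeloma therapies target, was at 240.1, 241 and 194 FPM with DMSO and 398, 415 and 411 FPM with ATRA (log2 fold change 0.86 ± 0.069 SE, limma adjusted p = 8.0e-07). TNFRSF13B, which encodes the related receptor TACI, was at 89.8, 89.3 and 78.2 FPM with DMSO and 157, 158 and 161 FPM with ATRA (log2 fold change 0.89 ± 0.051 SE, limma adjusted p = 5.6e-08), and CD40, a costimulatory receptor, went from 4.16 ± 0.33 to 7.78 ± 0.40 FPM (0.83). These 3 receptors had log2 fold changes of 0.83 to 0.89. Other receptors of the family fell, such as TNFRSF11A (1.41 to 0.448 FPM, -1.05) and TNFRSF1B (23.5 to 16.9 FPM, -0.47). TNFSF15 (-1.87) and TNFSF13, which encodes APRIL, the ligand of BCMA and TACI (-0.77), fell.

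Of immune checkpoint and NK ligand genes, which include receptors such as TIGIT, 8 of 28 rose (28.6%) and 14 fell (50.0%, median -0.20). Among the falls were CD48 (245 to 116 FPM, -1.06) and CD58 (42.1 to 21.6 FPM, -0.94). CD274, which encodes PD-L1, was at 2.45, 1.99 and 3.08 FPM with DMSO and 6.87, 6.33 and 6.498 FPM with ATRA (log2 fold change 1.25 ± 0.15 SE, limma adjusted p = 2.7e-05). Its neighbour PDCD1LG2, which encodes PD-L2, was at 4.02, 3.198 and 3.08 FPM with DMSO and 7.62, 9.24 and 8.099 FPM with ATRA (log2 fold change 1.17 ± 0.13 SE, limma adjusted p = 1.8e-05). Both were higher in every ATRA library than in any DMSO library, from low levels. ICAM1, an adhesion ligand of lymphocytes, rose from 5.22 ± 0.46 to 12.6 ± 1.1 FPM (1.20), CLEC2D, a ligand of the NK receptor KLRB1, from 5.46 ± 0.48 to 12.7 ± 0.74 FPM (1.15), and CLEC2B from 1.57 ± 0.56 to 4.83 ± 0.090 FPM (1.40), whereas CD276, the checkpoint ligand B7-H3, fell from 21.3 ± 1.3 to 9.78 ± 0.21 FPM (-1.08). SLAMF7, a plasma cell receptor that the antibody elotuzumab binds, fell from 686 ± 80 to 367 ± 2.8 FPM (-0.89). Of Fc receptor and complement genes, 8 of 17 rose and 6 fell (median 0.21), with FCRL4 at 0, 0 and 0.0664 FPM with DMSO and 1.51, 0.903 and 1.97 FPM with ATRA (1.87) and FCRL2 at 0.4302 to 1.23 FPM (0.89). With a minimum of 2 FPM, 5 of that list rose.

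Tetraspanins, small membrane organisers, were mostly lower: 2 of 17 rose and 11 fell (median -0.44). CD9 was at 124, 119 and 117 FPM with DMSO and 48.8, 51.6 and 53.2 FPM with ATRA (log2 fold change -1.23 ± 0.045 SE, limma adjusted p = 1.6e-09), and TSPAN7 (52.9 to 17.4 FPM, -1.57) and CD37 (12.1 to 6.37 FPM, -0.88) fell with it, against the rise of TSPAN18. Without ATRA 1, 1 member rose. Of axon guidance genes, 7 of 34 rose and 13 fell (median -0.28), and 4 rose without ATRA 1 or with a minimum of 2 FPM. PLXNC1, a semaphorin receptor, was at 589.9, 593 and 442 FPM with DMSO and 190.04, 192 and 188 FPM with ATRA (log2 fold change -1.50 ± 0.088 SE, limma adjusted p = 6.7e-08), while SLIT3, a secreted ROBO ligand, rose from 0.304 ± 0.090 to 5.67 ± 0.35 FPM (2.94). Of metalloproteases and their inhibitors 2 of 19 rose and 8 fell (median -0.39), with the sheddase ADAM10 at 482 to 281 FPM (-0.78) and the protease inhibitor TIMP2 at 362 to 249.9 FPM (-0.54). Of matrix genes 6 of 22 rose and 8 fell (median -0.14), with SPARC, a collagen-binding matrix protein, falling from 55.6 ± 5.3 to 22.2 ± 1.9 FPM (-1.30).

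The receptor CALCRL, which with its partners senses CGRP and adrenomedullin and raises cAMP, rose from 1.54 ± 0.68 to 38.3 ± 2.6 FPM (4.30). Of the calcitonin receptor family and cAMP pathway, with CALCRL among them, 7 of 34 rose and 20 fell (median -0.26). ADCY1, an adenylyl cyclase, was at 62.4, 59.7 and 46.3 FPM with DMSO and 25.5, 22.3 and 25.8 FPM with ATRA (log2 fold change -1.17 ± 0.099 SE, limma adjusted p = 1.4e-06), and the kinase regulatory subunit PRKAR2B (22.6 to 8.09 FPM, -1.43), the inhibitory G protein GNAI1 (23.95 to 9.55 FPM, -1.29) and the phosphodiesterase PDE3B (49.2 to 24.6 FPM, -0.97) fell. So the list holds falls of genes that raise cAMP and of genes that lower it. RGS1, which shortens G protein signalling, was at 207, 213 and 199.8 FPM with DMSO and 71.3, 76.05 and 77.6 FPM with ATRA (log2 fold change -1.45 ± 0.043 SE, limma adjusted p = 2.6e-10), and of its family 2 of 13 rose and 7 fell (median -0.34), with 1 rise by DESeq2 and without DMSO 1, ATRA 2 or ATRA 3.

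Of the regulators of the growth kinase mTORC1, 10 of 39 rose and 11 fell (median 0.05), near the shares over all genes. DEPTOR, an mTOR inhibitor that myeloma cells express highly, was at 371, 361 and 306 FPM with DMSO and 152, 153 and 159.5 FPM with ATRA (log2 fold change -1.15 ± 0.061 SE, limma adjusted p = 2.8e-08). Of other inhibitors of the kinase, DDIT4 rose from 6.49 ± 0.61 to 76.9 ± 3.2 FPM (3.47) and SESN2 from 9.85 ± 0.56 to 17.1 ± 0.78 FPM (0.77), whereas SESN1 fell from 85.9 ± 5.7 to 58.3 ± 1.3 FPM (-0.55) and SESN3 from 72.3 ± 0.89 to 44.9 ± 1.3 FPM (-0.68). The autophagy kinase ULK1 rose (0.89). In PI3K signalling 7 of 28 rose and 14 fell (median -0.13). The lipid phosphatase INPP4A was at 427, 426 and 371 FPM with DMSO and 814, 789.9 and 829.6 FPM with ATRA (log2 fold change 0.99 ± 0.051 SE, limma adjusted p = 2.3e-08), while its relative INPP4B fell from 3.05 ± 0.40 to 0.541 ± 0.14 FPM (-1.78), the kinase AKT1 from 65.3 ± 1.9 to 40.7 ± 2.4 FPM (-0.68) and the regulatory subunit PIK3R3 from 51.9 ± 0.78 to 26.6 ± 1.0 FPM (-0.95).

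Of TGF-beta and Notch genes, 7 of 40 rose (17.5%) and 18 fell (45.0%, median -0.14), against 23.8% and 32.5% of protein-coding genes. The Notch ligand JAG1 was at 37.6, 37.9 and 31.3 FPM with DMSO and 104, 107 and 111 FPM with ATRA (log2 fold change 1.58 ± 0.068 SE, limma adjusted p = 4.9e-09) and the receptor NOTCH2 at 116, 114 and 89.7 FPM with DMSO and 293, 297 and 298 FPM with ATRA (log2 fold change 1.48 ± 0.077 SE, limma adjusted p = 2.4e-08). Every ATRA library lay above every DMSO library for both JAG1 and NOTCH2. The receptor NOTCH1 (53.1 to 27.5 FPM, -0.93), the ligand DLL4 (-1.59) and the co-receptor TGFBR3 (-1.36) fell. WNT signalling genes were mostly lower: 3 of 31 rose and 20 fell (median -0.34), with the receptors FZD1 (-1.17), FZD4 (-0.93) and FZD8 (-1.02) and the factor TCF7 (-1.20) lower, WNT10B higher and beta-catenin, CTNNB1, not called (103 ± 5.5 with DMSO and 93.9 ± 4.8 FPM with ATRA). Among channels 8 of 31 rose and 11 fell (median -0.04), and 7 fell without DMSO 2. KCNH4 rose from 1.76 ± 0.24 to 38.9 ± 1.9 FPM (4.13), the calcium release channel RYR2 from 0.862 ± 0.073 to 4.31 ± 0.69 FPM (1.81) and the leak channel KCNK1 from 1.95 ± 0.46 to 7.37 ± 0.86 FPM (1.69).

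Fatty acid synthesis was among the lists with most rises: 15 of 29 rose, 6 of them at least 2-fold, and 8 fell (median 0.12). SREBF1, whose product SREBP-1 activates lipid synthesis genes, was at 23.2, 23.1 and 17.5 FPM with DMSO and 118, 111 and 109.9 FPM with ATRA (log2 fold change 2.39 ± 0.091 SE, limma adjusted p = 2.1e-09). SCD, which desaturates fatty acids, was at 224, 223 and 172 FPM with DMSO and 909, 929 and 928 FPM with ATRA (log2 fold change 2.17 ± 0.080 SE, limma adjusted p = 1.6e-09). ACACA, which makes malonyl-CoA, was at 46.7, 49.0 and 37.6 FPM with DMSO and 99.8, 93.9 and 104 FPM with ATRA (log2 fold change 1.16 ± 0.082 SE, limma adjusted p = 3.1e-07). All ATRA libraries lay above all DMSO libraries in these 3 genes, and DMSO libraries differed among themselves by far less than the groups. ACSL1 (19.3 to 41.8 FPM, 1.10) and ACSM3 (6.01 to 13.6 FPM, 1.12), which join fatty acids to coenzyme A, rose, while the desaturase FADS1 (48.8 ± 7.9 with DMSO and 42.5 ± 1.1 FPM with ATRA) was not called. Among the 8 falls were SCD5 (12.6 to 6.53 FPM, -0.90), ACACB (36.4 to 22.0 FPM, -0.70), ELOVL7 (35.7 to 20.5 FPM, -0.78) and HACD2 (148 to 89.8 FPM, -0.72).

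Of fatty acid oxidation genes, 11 of 32 rose and 10 fell (median 0.03), with 6 falls without DMSO 1, ATRA 1 or ATRA 3 and 4 by DESeq2. SLC25A20, the carrier that brings acylcarnitines into mitochondria, was at 98.2, 101 and 89.7 FPM with DMSO and 475, 484 and 479.6 FPM with ATRA (log2 fold change 2.31 ± 0.045 SE, limma adjusted p = 1.1e-11), the largest change of this list. ECI2 (0.58), ACADM (0.48) and ACADVL (0.41), enzymes of the same pathway, rose by less. Genes of both the synthesis and the breakdown of fatty acids were thus among the rises. Of TCA cycle genes, 11 of 35 rose and 13 fell (median 0.01). PDP2, a phosphatase that activates pyruvate dehydrogenase, rose from 47.9 ± 0.39 to 138 ± 1.4 FPM (1.52), and PDK1, a kinase that inhibits it, fell from 348 ± 20 to 189.6 ± 5.1 FPM (-0.87), although PDP1, the other phosphatase, fell too (10.9 ± 1.8 to 5.21 ± 1.1 FPM). Of glycerolipid genes 11 of 42 rose and 14 fell (median -0.01), with GPAT3 (1.27) and PCYT1B (1.35) higher and LPCAT1 (318 to 192 FPM, -0.72) lower, and of sphingolipid genes 7 of 31 rose and 14 fell (median -0.12), with 8 falls by DESeq2.

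Amino acid transporters rose more often than they fell: 12 of 24 rose and 3 fell (median 0.16). SLC7A11, the cystine importer, went from 12.97 ± 0.58 to 35.9 ± 1.4 FPM (1.43), the glycine carrier SLC6A9 from 7.91 ± 0.40 to 15.2 ± 0.58 FPM (0.90) and the glutamine carrier SLC1A5 from 227 ± 11 to 319.8 ± 5.0 FPM (0.50). One-carbon enzymes split, as 14 of 36 rose and 13 fell (median -0.02). Thymidylate synthase, TYMS, fell from 326 ± 22 to 166 ± 6.0 FPM (-0.97) and the serine hydroxymethyltransferase SHMT1 from 48.9 ± 3.1 to 21.4 ± 1.1 FPM (-1.17), while SHMT2 (122 ± 1.4 with DMSO and 124 ± 0.64 FPM with ATRA) and MTHFD1 (130.4 ± 1.2 with DMSO and 124 ± 0.99 FPM with ATRA) were not called. GLDC, which breaks down glycine, fell from 128 ± 7.8 to 59.6 ± 1.1 FPM (-1.09), and CTH, which makes cysteine, rose (0.74). Of nucleotide synthesis genes 12 of 30 rose and 9 fell (median 0.07), with GMPS (-0.73) and PRPS2 (-0.90) lower. ATP13A2, a lysosomal polyamine exporter, was at 22.3, 20.2 and 17.5 FPM with DMSO and 85.3, 78.3 and 82.02 FPM with ATRA (log2 fold change 2.01 ± 0.077 SE, limma adjusted p = 2.2e-09), and of polyamine genes 6 of 21 rose and 6 fell (median 0.04).

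Genes of the early secretory pathway rose more often than they fell. Of COPII and COPI genes, which carry proteins between the endoplasmic reticulum and the Golgi, 29 of 52 rose and 4 fell (median 0.14). LMAN1, a cargo receptor, was at 527, 542 and 524 FPM with DMSO and 874, 879 and 886 FPM with ATRA (log2 fold change 0.73 ± 0.032 SE, limma adjusted p = 6.2e-09), and ARF4 (111 to 185 FPM, 0.74) and the exit site gene MIA2 (42.3 to 72.6 FPM, 0.77) rose. KDELR3, a retrieval receptor, was at 0.525, 0.543 and 0.538 FPM with DMSO and 3.21, 3.96 and 4.01 FPM with ATRA (log2 fold change 2.02 ± 0.16 SE, limma adjusted p = 9.5e-07). The falls were 7 without DMSO 3, and 2 without any other library, with no minimum, with TMM or median-ratio scaling, and with edgeR or DESeq2. On the list of immunoglobulin and joining chain genes 5 of 12 rose and 4 fell (median 0.05). Its summed level was lower, at 15852 to 17781 FPM over the DMSO libraries and 13806 to 14068 FPM over the ATRA libraries. JCHAIN, which joins IgA and IgM, fell from 4665 ± 493 to 3889.9 ± 24 FPM (-0.26) while MZB1, an immunoglobulin chaperone, rose from 387 ± 10 to 553 ± 5.5 FPM (0.51). CD79A, a chain of the B cell receptor, was at 0.0586, 0.4803 and 0.0675 FPM with DMSO and 2.398, 1.81 and 2.73 FPM with ATRA (log2 fold change 2.04 ± 0.25 SE, limma adjusted p = 2.9e-05), with CD79B not called (12.1 ± 0.80 with DMSO and 11.6 ± 1.3 FPM with ATRA).

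Of Golgi glycosylation genes 9 of 50 rose and 19 fell (median -0.07), which is 18% and 38% against 23.8% and 32.5% of protein-coding genes. The sialyltransferases went in opposite directions. ST6GAL1, which adds sialic acid to N-glycans, was at 889.6, 892 and 777 FPM with DMSO and 463, 463 and 459 FPM with ATRA (log2 fold change -0.88 ± 0.049 SE, limma adjusted p = 4.2e-08). ST3GAL1, which adds it to O-glycans, was at 254, 257 and 226 FPM with DMSO and 534, 542 and 546 FPM with ATRA (log2 fold change 1.14 ± 0.046 SE, limma adjusted p = 3.5e-09), and ST3GAL2 rose from 27.9 ± 3.8 to 62.5 ± 2.3 FPM (1.16). Neither gene's groups overlapped. Of RAB GTPases, which direct vesicles, 8 of 47 rose and 17 fell (median -0.05), with RAB37 (3.36 to 18.7 FPM, 2.32) and RAB39B (1.66) higher and RAB20 (-1.91), RAB27B (-1.73) and RAB4B (-1.52) lower. Of exocytosis genes 13 of 47 rose and 9 fell (median 0.00), led by SV2B, a vesicle glycoprotein (0.639 to 26.9 FPM, 4.59), and UNC13B, which primes vesicles (87.3 to 228 FPM, 1.38), with 5 falls by DESeq2.

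Translation factors rose by small amounts: 32 of 50 rose and 5 fell (median 0.15), with none past 2-fold. EEF2, an elongation factor, was at 2135, 2057 and 2056 FPM with DMSO and 2729, 2692 and 2669.5 FPM with ATRA (log2 fold change 0.37 ± 0.036 SE, limma adjusted p = 4.6e-06). EIF3G (0.45), EIF6 (0.36), EIF1 (0.36) and EEF1B2 (0.33) rose too, and EIF4A1 (608 ± 31 with DMSO and 617 ± 5.1 FPM with ATRA) was not called. Falls were 3 without ATRA 2 or ATRA 3, with median-ratio scaling and with edgeR, and 2 with DESeq2. Splicing proteins of the SR and hnRNP families went the other way, as 4 of 48 rose and 30 fell (median -0.19). PTBP1, a splicing repressor, was at 374, 356 and 374 FPM with DMSO and 253, 246 and 249.97 FPM with ATRA (log2 fold change -0.56 ± 0.034 SE, limma adjusted p = 8.9e-08), against the rises of PCBP2 and of HNRNPLL, which switches splicing in lymphocytes (49.7 to 132 FPM, 1.40). Without DMSO 3, 7 of that list rose. Of mRNA decay genes 9 of 45 rose and 17 fell (median -0.07), with ZFP36, which destabilises cytokine mRNAs, higher (72.8 to 125 FPM, 0.78) and 11 falls by DESeq2.

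Chromatin genes fell more often than they rose, as did protein-coding genes as a whole (32.5% against 23.8%), and ASF1B and the remodelling subunit DPF3 fell at least 2-fold. Of histone chaperones and variants 4 of 30 rose and 21 fell (median -0.20), of histone methyltransferases and demethylases 7 of 56 rose and 25 fell (median -0.14), of acetylation and bromodomain genes 4 of 40 rose and 19 fell (median -0.13) and of remodelling subunits 5 of 44 rose and 26 fell (median -0.16). The falls are 70.0%, 44.6%, 47.5% and 59.1% of the members tested. EZH2, the methyltransferase of Polycomb, was at 162, 169 and 189 FPM with DMSO and 103, 101 and 105 FPM with ATRA (log2 fold change -0.75 ± 0.052 SE, limma adjusted p = 2.6e-07). NSD2, another histone methyltransferase, was at 265, 269 and 272 FPM with DMSO and 156, 157 and 161 FPM with ATRA (log2 fold change -0.76 ± 0.033 SE, limma adjusted p = 5.4e-09). ATAD2, a bromodomain ATPase, fell from 267 ± 16 to 151 ± 1.7 FPM (-0.82) and ASF1B, a chaperone of new histones, from 58.4 ± 2.8 to 27.7 ± 1.4 FPM (-1.06), while KDM5B, a demethylase of active promoters, rose from 6.801 ± 0.86 to 13.4 ± 0.56 FPM (0.93). Replication genes such as TYMS and RRM2 (1213 to 552 FPM, -1.13) were lower in the same libraries, and their part in these falls was not tested. Of repair genes 3 of 41 rose and 25 fell (median -0.23), with the ligase LIG1 (93.0 to 42.9 FPM, -1.11) and the uracil glycosylase UNG (135 to 69.7 FPM, -0.94) lower, and 1 rise without ATRA 1 or ATRA 2. Of nuclear pore genes 10 of 59 rose and 28 fell (median -0.11). NUP210, among the rises, was at 458, 466 and 405 FPM with DMSO and 1023, 1021 and 1013 FPM with ATRA (log2 fold change 1.20 ± 0.049 SE, limma adjusted p = 3.2e-09).

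Cytoskeletal genes fell widely, as 8 of 62 rose and 41 fell (median -0.26), 6 of them at least 2-fold. VIM, which encodes the filament protein vimentin, was at 367, 370.3 and 298 FPM with DMSO and 125, 125 and 124 FPM with ATRA (log2 fold change -1.46 ± 0.068 SE, limma adjusted p = 9.6e-09). LMNB1, which encodes lamin B1, was at 241, 235 and 283 FPM with DMSO and 115, 111 and 113 FPM with ATRA (log2 fold change -1.16 ± 0.059 SE, limma adjusted p = 2.2e-08), and TMSB4X, which binds free actin, at 470.3, 488 and 504 FPM with DMSO and 215, 224 and 229 FPM with ATRA (log2 fold change -1.13 ± 0.038 SE, limma adjusted p = 8.3e-10). In all 3 genes every ATRA library lay below every DMSO library. Rises numbered 5 without DMSO 1, ATRA 2 or ATRA 3. ARHGDIB, a guanine nucleotide dissociation inhibitor (740.2 ± 93 with DMSO and 735 ± 7.1 FPM with ATRA), and PFN1, profilin (548 ± 49 with DMSO and 518 ± 4.6 FPM with ATRA), were not called. By count tubulins split, as 7 of 21 rose and 8 fell (median -0.10). Their summed level was lower, at 4453 to 4786 FPM over the DMSO libraries and 2819 to 2842 FPM over the ATRA libraries.

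**Figure D5:**
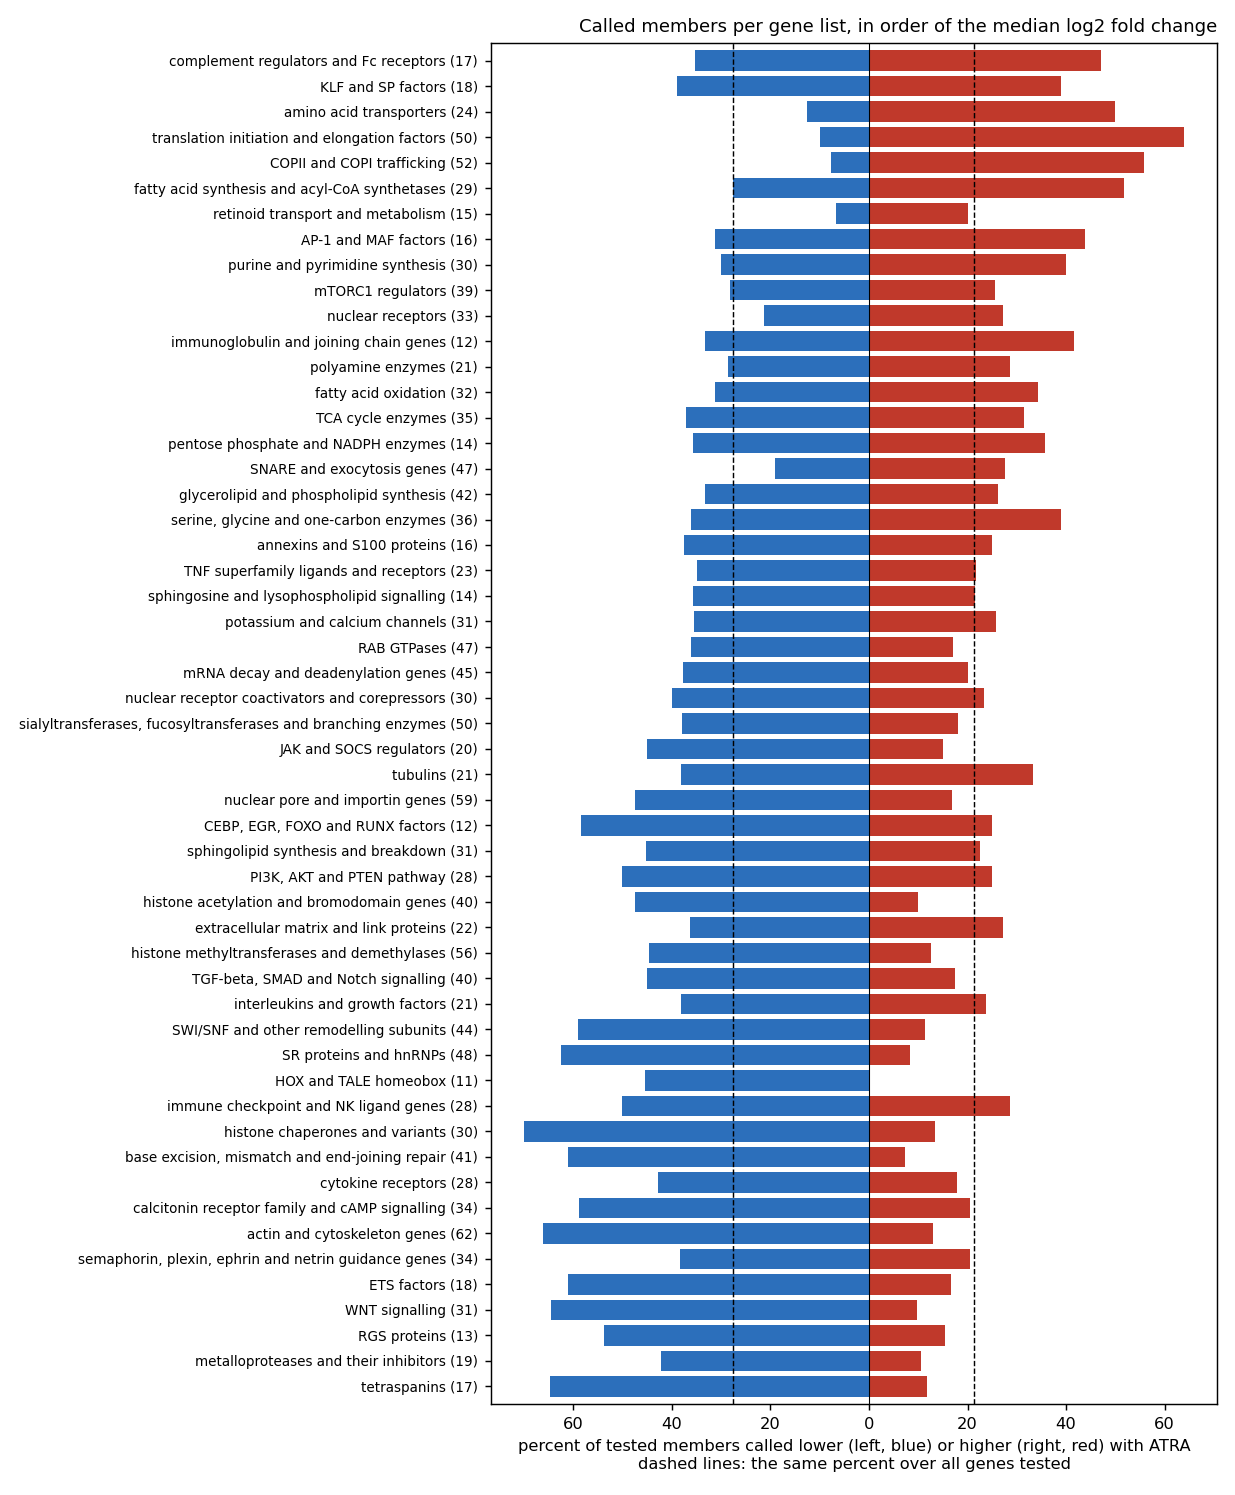
Percent of tested members called higher (right, red) or lower (left, blue) in 53 gene lists, with the number tested in brackets and dashed lines at the percent over all genes tested (21.3% higher, 27.7% lower); lists are ordered by their median log2 fold change. Translation factors and COPII and COPI genes reach the highest shares of rises, and histone chaperones, cytoskeletal genes and tetraspanins the highest shares of falls.

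Some large changes were shared by neighbouring genes. In chromosome order (GENCODE release 29, tested protein-coding genes), 59 of 260 genes at least 2-fold higher stood next to another such gene (22.7%), whereas 505 of all 12372 genes did (4.08%). For genes at least 2-fold lower the numbers were 70 of 440 (15.9%) and 858 of 12372 (6.94%). Distance was not limited: SRI and STEAP1, both higher, count as neighbours with 1927 kb between them. Overlapping genes count too, such as LCAT and SLC12A4 on the same strand (gap -0.658 kb). Whether overlapping genes share reads was not tested. HAPLN3 and MFGE8, the genes with the largest folds, lie on the same strand of chromosome 15 with 3.06 kb between them, and whether reads of the upstream gene entered the count of the other was not tested. OAS1, OAS3 and OAS2 lie in a row on chromosome 12. On chromosome 16, LCAT, a plasma cholesterol acyltransferase (1.96), the potassium chloride carrier SLC12A4 (2.33) and the dipeptidases DPEP3 (1.73) and DPEP2 (1.73) form a run of 4. CD274 and PDCD1LG2 are adjacent on chromosome 9, PLAAT4 and PLAAT2 on chromosome 11, and SREBF1 and TOM1L2 (1.17) on chromosome 17. Among the falls, CCL3 (-1.26) and CCL4 (-1.31), related chemokines, are adjacent on chromosome 17. These pairs were chosen after their values were seen.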

How the data were processed

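Total RNA of MM.1S cells was sequenced. The submitters' processing notes name fastp 0.20.0, kallisto 0.46.2 and, without a version, DESeq2. For the build, the annotation and the strand setting, nothing is given in the sources used here. The authors deposited FPM values per lane, a CPM unit in which each lane sums to 1000000. The 4 lanes of a library were averaged, since they differed little more than sampling noise (chi-square per degree of freedom 1.183 to 1.241), and each of 24249 gene IDs was used once (143 IDs were on more than 1 line, with equal values). Whole reads were recovered for 100% of values within 0.01 read.

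In R 4.3.3, limma 3.58.1 with a mean-variance trend was run on log2(FPM + 0.5) over the 3 DMSO and 3 ATRA libraries, with 4 residual and 7.51 prior degrees of freedom. Calls needed an adjusted p (Benjamini-Hochberg) under 0.05, over genes with at least 0.5 FPM as the mean of both group means. Floors cover counting error only. For 405 tested genes the lanes of a library differed beyond sampling noise.

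The deposited table gave symbols for 17006 IDs, GENCODE release 29 for another 6482 and a gene name table for another 754. The 59 gene lists are described by counts and medians, with no set test, and the members and lists were chosen with earlier results of these data known. The text names the 25 largest rises and falls with separate groups and at least 2 FPM, up to 6 called and 2 uncalled members of each list, all retinoid enzymes and nuclear receptors above the minimum, genes near absence in 1 group, the 12 largest gains and losses of fragments, and the most stable of the 300 genes with most fragments. Some genes that the rule names are not reported. Alternatives were other pseudocounts, minimums and scalings, edgeR 4.0.16 and DESeq2 1.42.0 on recovered reads, robust variances, all 8 libraries, a replicate block and leaving out each library.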

Additional observations from a re-analysis of the deposited data

How the results depend on the processing

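The number of genes called stayed within 1.5 times of 7720 under all 17 alternatives run, from 6406 with DESeq2 to 8235 without DMSO 3, as did the numbers of rises and falls. The counts of genes at least 2-fold changed moved further under 2 of them. With 2 FPM added before the logarithm they were 182 higher and 225 lower, and with edgeR on recovered reads 493 were higher. Leaving out each library in turn gave 6701 to 8235 genes called, with 2863 to 3524 higher and 3838 to 4711 lower, and 315 to 335 at least 2-fold higher and 466 to 516 at least 2-fold lower. Rises made up 43.5% of calls, and 48.3% with median-ratio scaling, 48.1% with edgeR and 48.4% with DESeq2, while the median log2 fold change moved from -0.03 to between -0.02 and 0.00. Library numbers did not pair the samples, since deviations of DMSO and ATRA libraries correlated by -0.0131 to 0.0078 across genes, and a replicate block gave 7661 genes called. No gene named by the rule changed sign as a call. Without DMSO 3, 358 calls were lost and, among genes tested with all 6 libraries, 856 gained; of the genes that the rule names, 42 became calls and 1 was lost, and DESeq2 lost 16. The depth, with 3 reads at 0.175 to 0.209 FPM, limits folds of genes near 0.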

Other observations

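Further lists held changes in both directions. Of CEBP, EGR, FOXO and RUNX factors 3 of 12 rose and 7 fell (median -0.12), with CEBPB, a factor of myeloid and plasma cells, higher (9.43 to 14.6 FPM, 0.59) and NAB2, a repressor of EGR factors, lower (2.09 to 0.573 FPM, -1.29). The falls were 4 without DMSO 1, DMSO 2, ATRA 1 or ATRA 2 and with DESeq2. Of interleukins and growth factors 5 of 21 rose (23.8%) and 8 fell (38.1%, median -0.15), near the 23.8% and 32.5% of protein-coding genes. MDK, the heparin-binding factor midkine, was at 0.3496, 0.663 and 0.201 FPM with DMSO and 1.95, 1.88 and 2.29 FPM with ATRA (log2 fold change 1.52 ± 0.22 SE, limma adjusted p = 9.4e-05), and FGF9 rose from 3.81 ± 1.5 to 7.98 ± 0.17 FPM (1.03), while FGF2 (-0.85) and PDGFB (-0.95) fell. Rises numbered 3 without DMSO 1, ATRA 2 or ATRA 3.

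Of sphingosine and lysophospholipid signalling genes 3 of 14 rose and 5 fell (median -0.04), with 1 to 3 falls by DESeq2 and without any 1 library other than DMSO 3. The receptor S1PR2 rose from 22.8 ± 1.8 to 40.4 ± 2.6 FPM (0.81) and S1PR3 from 0.379 ± 0.33 to 1.27 ± 0.33 FPM (1.06), and the phosphatase SGPP1 fell from 11.6 ± 1.1 to 6.26 ± 0.38 FPM (-0.84). P2RY8, a receptor that confines B cells to germinal centres, rose from 91.5 ± 4.4 to 121 ± 2.3 FPM (0.41). Annexin and S100 genes split, as 4 of 16 rose and 6 fell (median -0.02), with S100A10, the partner of annexin A2, at 15.1 to 7.10 FPM (-1.03), S100A11 at 251 to 159 FPM (-0.65) and ANXA2 not called (254 ± 18 with DMSO and 261 ± 2.4 FPM with ATRA). With a minimum of 2 FPM, 2 of them rose. Of pentose phosphate and NADPH enzymes 5 of 14 rose and 5 fell (median 0.01), with ME1 (41.2 to 85.6 FPM, 1.05) and TALDO1 (0.41) higher and NADK2, the mitochondrial NAD kinase, lower (60.7 to 45.01 FPM, -0.43). The falls were 3 with DESeq2 and without DMSO 2 or ATRA 1.

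Of 7 tested markers of B cells before the plasma cell stage, BACH2, a repressor of plasma cell differentiation, was at 27.9, 25.6 and 28.8 FPM with DMSO and 50.9, 46.8 and 47.3 FPM with ATRA (log2 fold change 0.81 ± 0.060 SE, limma adjusted p = 4.7e-07), and CIITA, which switches on MHC class II genes, fell from 44.5 ± 3.4 to 29.4 ± 0.98 FPM (-0.59). Of plasma cell genes, the master regulator PRDM1 rose from 450.2 ± 23 to 675 ± 7.6 FPM (0.58) while IRF4, on which myeloma cells depend, fell from 1140.4 ± 126 to 836 ± 8.3 FPM (-0.44).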
